A study of Arabidopsis thaliana with 18 samples.

Results

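Guard cells take up sugar from the surrounding cell wall, and 10 genes that encode carriers of single sugars in Arabidopsis were followed here through 18 microarrays of these cells. The genes are STP1 (AT1G11260), STP3 (AT5G61520), STP4 (AT3G19930), STP7 (AT4G02050), STP13 (AT5G26340, named MSS1 in RefSeq), STP14 (AT1G77210), PMT6 (AT4G36670), ERD6 (AT1G08930), TMT1 (AT1G20840) and TMT2 (AT4G35300). They were chosen by locus name, but with earlier results of these data known, so comparisons of the 10 genes with all probe sets are descriptions. Each of the 10 had a single probe set of its own among the 22746 probe sets of the Affymetrix ATH1 array, and all 10 were tested in every comparison.

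The question of the study was how the transcripts of guard cells respond to sucrose. Leaf strips 1 mm wide from plants 8 to 10 weeks old were kept for 5 h at 22 °C on a salt solution (KCl at 50 mM, CaCl2 at 0.1 mM) that held 150 mM sucrose, 150 mM mannitol or no sugars. Mannitol is a sugar alcohol that served as the osmotic control. The plants were wild-type Col-0 or rgs1, a mutant of RGS1 in that background, a regulator of G-protein signalling linked to sugar sensing, so each of the 3 solutions was given to 2 genotypes, which makes 6 groups of 3 arrays. Every array stands for 50 to 100 guard-cell pairs dissected by hand from a single plant, with the RNA amplified in 2 rounds. The mutant is represented by a single line. The third biological replicate came from plants grown some months after the first 2, and replicate number 3 in the sample titles is taken here as that later growth batch. The first 2 replicates were themselves from different batches whose growth overlapped in time.

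Plants move sugars between cells both as sucrose and, once an invertase in the cell wall has split it, as glucose and fructose. The monosaccharide transporter family carries these and related single sugars. Its STP members sit in the plasma membrane and bring hexoses into the cell together with protons. The PMT members carry linear polyols as well as hexoses, the TMT members load sugar into the vacuole in exchange for protons, and the ERD6-like members are a large group named after a gene found as early responsive to dehydration. In guard cells, sugar from the apoplast feeds starch, respiration and osmotic pressure.

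The deposited values are log2 signals, in which a difference of 1 is a doubling, and they were compared within a gene only, since probe sets differ in how brightly they read. A log2 value of 4 was taken as the limit above background, and 47.6% to 49.2% of the probe sets reached it on an array. A gene was called where limma gave an adjusted p (Benjamini-Hochberg over all probe sets tested) under 0.05. RGS1 itself read 8.17 to 10.37 on the 9 wild-type arrays and 3.14 to 5.75 on the 9 rgs1 arrays, without overlap. All 9 guard-cell markers examined, among them KAT1, SLAC1 and FAMA, were at 4 or more on all 18 arrays. The phloem markers APL, SWEET11 and SWEET12 were below 4 on every array. Of the 3 epidermal markers, ATML1 (5.93 to 8.89) and FDH (12.23 to 13.65) were at 4 or more on all 18 arrays and PDF1 on none. The phloem marker SUC2 (8.69) and the trichome marker GL2 (7.68) each exceeded 4 on 1 array only, wild type with sucrose replicate 1, and the trichome marker GL1 (5.61) on 1 array, wild type with no sugars replicate 3. The mean over 4 photosynthesis genes that are rich in mesophyll (CA1, RBCS1A, GLDP1 and PSBR), all at 4 or more on all 18 arrays, was 9.99 to 11.69 with no sugars, 9.72 to 11.42 with mannitol and 8.92 to 11.56 with sucrose. Its part in the results below was not tested. In samples of many cells, fewer cells that express a gene and less RNA per cell cannot be told apart.

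**Figure D1:**
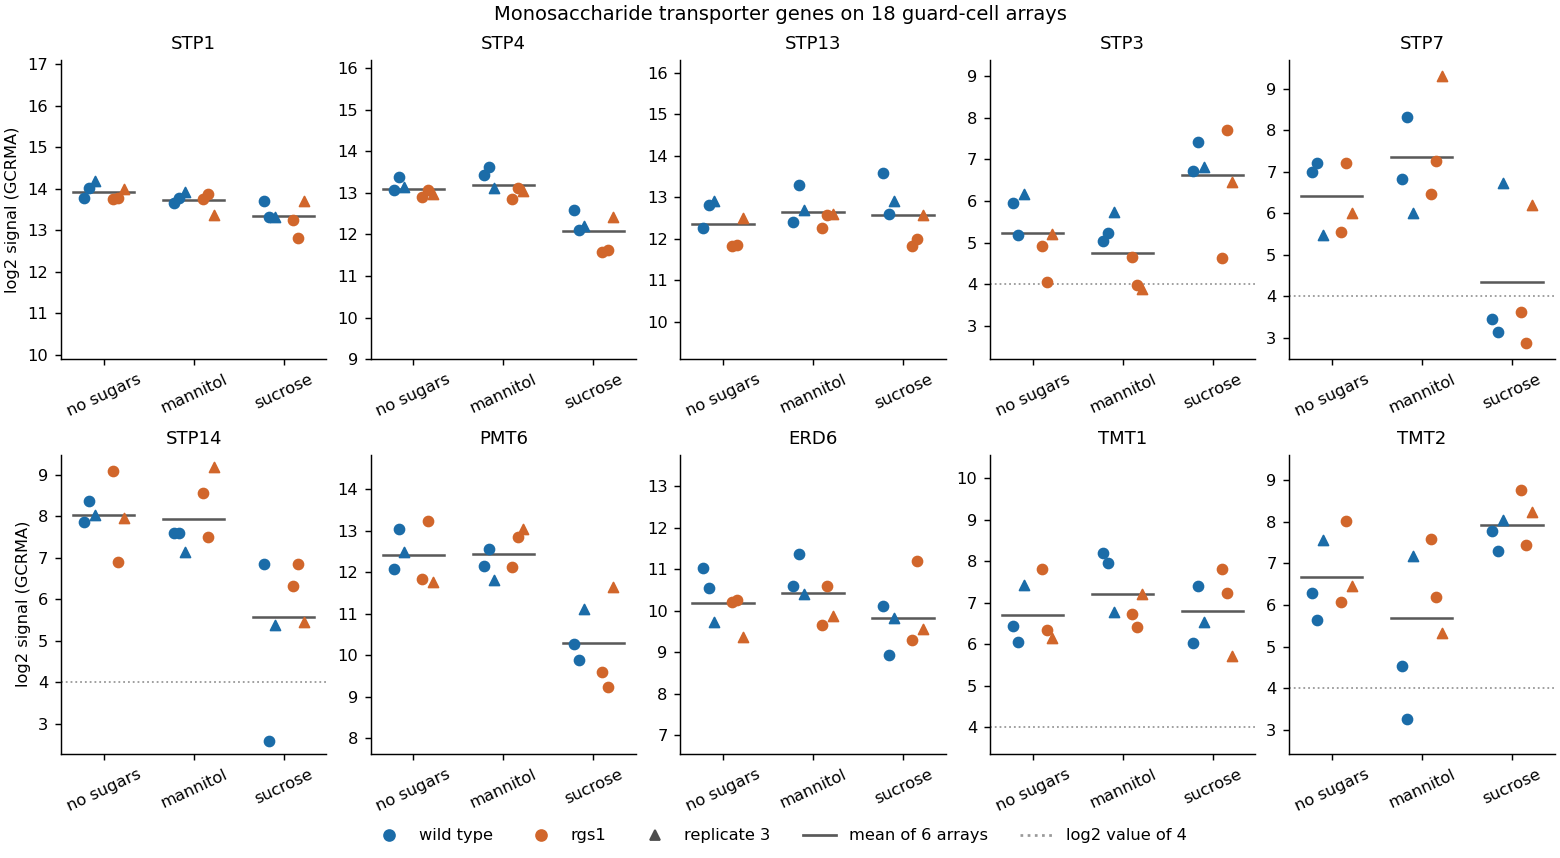
Log2 signal of each of the 10 transporter genes (y axis, 1 panel a gene, every panel spanning the same number of log2 units) with no sugars, mannitol and sucrose (x axis). Points are single arrays, coloured by genotype, triangles are replicate 3, bars are the mean of 6 arrays, and the dotted line marks a log2 value of 4. The sucrose points of PMT6 (9.23 to 11.63), STP4 and STP14 lie below all mannitol and no-sugar points, whereas those of STP13, ERD6 and TMT1 overlap both.

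With sucrose, transcripts of PMT6 were called lower against both controls and those of STP14 against no sugars only. The STP14 values were close, -2.46 against no sugars (limma, adjusted p = 0.0470) and -2.35 against mannitol (limma, adjusted p = 0.0725). Its call was lost in 20 of 31 alternatives. In these fits no transporter was called higher, and mannitol against no sugars gave no call. Between sucrose and mannitol, with the genotypes combined, 1 of the 10 genes was called, lower, where 2.36% of 10979 probe sets were called and 1.21% were called lower and 1.15% higher. Between sucrose and no sugars, 2 of the 10 were called, both lower, where 4.11% of 10937 probe sets were called and 1.76% were called lower and 2.34% higher. Counts of 1 and 2 among 10 genes are too small to be read against these shares. The same 6 sucrose arrays enter both comparisons, so they are not separate evidence. The median log2 fold change over the 10 genes was -0.51 against mannitol and -0.47 against no sugars, where the medians over all probe sets tested were 0.03 and 0.01.

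The signals also separated completely for some genes that were not called. All 6 sucrose arrays were below all 6 mannitol arrays for PMT6, STP4 and STP14, that is for 3 of 10 genes, where 1.47% of all probe sets tested showed this. All 6 were below the 6 no-sugar arrays for these and for STP1, 4 of 10 genes, where the share over all probe sets was 1.57%. None of the 10 genes had every sucrose array above every mannitol array, where 1.33% of all probe sets did, or above every no-sugar array, where 1.78% did. Before adjustment, 6 of the 10 genes had a limma p under 0.05 against mannitol, where 18.7% of all probe sets did, and 7 against no sugars, where 21.4% did. Because the 10 genes were chosen with earlier results of these data known, these shares are a description and no test of the family. The study had already listed PMT6 and STP4 as lowered by sucrose against mannitol in these data, with the sugar transporters SUC1, GLT1 and AT2G48020. Its limma threshold was also an adjusted p under 0.05, after removal of probe sets called absent. STP4 was thus called there and was not called here.

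PMT6 encodes a polyol/monosaccharide transporter and was the gene called in both comparisons. In the wild type its log2 values were 12.08, 13.04 and 12.48 with no sugars, 12.16, 12.56 and 11.82 with mannitol and then 10.26, 9.88 and 11.12 with sucrose. In rgs1 they were 9.60, 9.23 and 11.63 with sucrose, against 12.14, 12.86 and 13.03 with mannitol and 11.84, 13.23 and 11.77 with no sugars. The sucrose arrays were thus the 6 lowest of the 18, and replicate 3 was the highest of the 3 sucrose arrays in each genotype.

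The mean of PMT6 was 10.29 ± 0.92 (SD, n = 6) with sucrose, 12.43 ± 0.47 with mannitol and 12.40 ± 0.62 with no sugars. Against mannitol it was 4.41-fold lower with sucrose, a log2 fold change of -2.14 (limma, standard error 0.43, adjusted p = 0.0211). Against no sugars it was 4.33-fold lower, a log2 fold change of -2.12 (limma, standard error 0.44, adjusted p = 0.0215). The first of these calls was lost when any of 4 arrays was left out. Its limma adjusted p was then 0.0538 (wild type sucrose replicate 2 left out), 0.0540 (rgs1 mannitol replicate 2), 0.0545 (rgs1 mannitol replicate 3) or 0.0505 (rgs1 sucrose replicate 2). The log2 fold change without each of these arrays was between -2.06 and -1.93, and the call against no sugars stood whichever single array was left out.

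STP14, a plasma membrane carrier known for galactose uptake, was called only against no sugars. In the wild type it read 7.86, 8.38 and 8.03 with no sugars, 7.59, 7.60 and 7.14 with mannitol and then 6.85, 2.58 and 5.39 with sucrose. In rgs1 the arrays read 6.33, 6.85 and 5.46 with sucrose, against 8.55, 7.50 and 9.18 with mannitol and 9.08, 6.89 and 7.97 with no sugars. All 6 sucrose values lay below the 12 others, but the highest of them, 6.85, was close to the lowest no-sugar value of 6.89, and the value of 2.58 in wild type replicate 2 stood below the background limit.

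The mean of STP14 was 5.58 ± 1.60 (SD, n = 6) with sucrose against 8.04 ± 0.71 with no sugars, 5.50-fold lower, with a log2 fold change of -2.46 (limma, standard error 0.64, adjusted p = 0.0470). Without the array that read 2.58, the log2 fold change was -1.86 (limma, adjusted p = 0.0481). The call was lost without any single one of 10 of the 12 arrays of the comparison, with limma adjusted p between 0.0509 and 0.0933 and log2 fold changes between -2.71 and -2.25. It stood without the array that read 2.58 and without wild type sucrose replicate 1 (limma, adjusted p = 0.0409), the array with SUC2 and GL2 signal. With mannitol the mean was 7.93 ± 0.77, and the log2 fold change of sucrose against it, -2.35 (limma, standard error 0.65, adjusted p = 0.0725), was not called. That value was -1.75 without the array that read 2.58.

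Of the other plasma membrane hexose carriers, STP4, known for its expression in sink tissues and after wounding or pathogen attack, was lower on every sucrose array. Its 12 control values lay between 12.85 and 13.62. Its sucrose values were 12.60, 12.11 and 12.20 in the wild type and 11.58, 11.62 and 12.42 in rgs1. The sucrose and control arrays did not overlap in either genotype.

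The mean of STP4 was 12.09 ± 0.42 (SD, n = 6) with sucrose, 13.20 ± 0.28 with mannitol and 13.09 ± 0.16 with no sugars. The log2 fold change was -1.11 against mannitol (limma, standard error 0.29, adjusted p = 0.0583) and -0.999 against no sugars (limma, standard error 0.27, adjusted p = 0.0528), so neither passed the threshold. STP4 passed it against mannitol when wild type sucrose replicate 1 was left out (limma, log2 fold change -1.21, adjusted p = 0.0491), and against no sugars likewise (limma, log2 fold change -1.10, adjusted p = 0.0438). Alternatives other than leaving out 1 array or 1 replicate number were 16. STP4 passed the threshold in 4 of them against mannitol (limma, lowest adjusted p = 0.0230). Against no sugars it did so in 6 of the 16 (limma, lowest adjusted p = 0.0172).

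STP1, a hexose carrier long known from guard cells, had the narrowest range of the 10 genes, 12.82 to 14.18 over the 18 arrays. Its no-sugar values were 13.79, 14.01 and 14.18 in the wild type and 13.75, 13.79 and 14.00 in rgs1, and its mannitol values 13.66, 13.78 and 13.92 and 13.75, 13.87 and 13.38. With sucrose the values were 13.72, 13.31 and 13.31 in the wild type and 13.25, 12.82 and 13.70 in rgs1. The sucrose arrays were below every no-sugar array, by as little as 13.72 against 13.75, and overlapped the mannitol arrays. The log2 fold change was -0.57 against no sugars (limma, standard error 0.26, adjusted p = 0.221) and -0.37 against mannitol (limma, standard error 0.27, 95% interval -0.95 to 0.20, adjusted p = 0.494), and neither was called.

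STP7, a plasma membrane carrier that has been linked to the pentoses of the cell wall, had the largest difference from mannitol of the 10 genes and the largest standard error. Its wild-type values were 6.99, 7.20 and 5.48 with no sugars, 6.82, 8.31 and 6.01 with mannitol and finally 3.45, 3.13 and 6.72 with sucrose. Those of rgs1 were 3.62, 2.86 and 6.20 with sucrose, against 6.47, 7.25 and 9.31 with mannitol and 5.54, 7.20 and 5.99 with no sugars. Replicates 1 and 2 with sucrose were below background in both genotypes and below all 12 control arrays, while replicate 3 lay among the controls.

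The mean of STP7 was 4.33 ± 1.68 (SD, n = 6) with sucrose, 7.36 ± 1.23 with mannitol and 6.40 ± 0.82 with no sugars. The log2 fold change was -3.03 against mannitol (limma, standard error 0.75, adjusted p = 0.0513) and -2.07 against no sugars (limma, standard error 0.68, adjusted p = 0.0974), neither past the threshold. Because 4 of the 6 sucrose values were below 4, the size of these differences rests on the floor of the arrays. The first value passed the threshold without wild type sucrose replicate 3 (limma, log2 fold change -3.51, adjusted p = 0.0273) or without rgs1 sucrose replicate 3 (limma, log2 fold change -3.40, adjusted p = 0.0346). The second passed it without the former array (limma, log2 fold change -2.55, adjusted p = 0.0375).

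STP13, a hexose carrier known to be induced during programmed cell death and by pathogens, showed no difference with sucrose that exceeded its spread. Its values were 11.82 to 12.90 with no sugars (median 12.38), 12.26 to 13.28 with mannitol (median 12.58) and 11.82 to 13.58 with sucrose (median 12.59). The 3 treatments overlapped throughout. The log2 fold change was -0.05 against mannitol, with a 95% interval of -0.79 to 0.68 (limma, adjusted p = 0.958), and 0.22 against no sugars, with an interval of -0.53 to 0.97 (limma, adjusted p = 0.753).

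The 2 genes with the largest positive values were STP3 and TMT2, and neither was called. STP3, a carrier of green leaf tissue, read 5.96, 5.18 and 6.16 with no sugars, 5.03, 5.24 and 5.74 with mannitol and then 6.72, 7.43 and 6.82 with sucrose in the wild type. In rgs1 it read 4.62, 7.71 and 6.46 with sucrose, 4.64, 3.97 and 3.87 with mannitol, and 4.91, 4.04 and 5.19 with no sugars. Of the sucrose arrays, 5 were above all 12 controls, and the sixth, rgs1 replicate 1, was among them.

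The mean of STP3 was 6.63 ± 1.09 (SD, n = 6) with sucrose, 4.75 ± 0.73 with mannitol and 5.24 ± 0.76 with no sugars. Its log2 fold change was 1.88 against mannitol (limma, standard error 0.51, adjusted p = 0.0646) and 1.39 against no sugars (limma, standard error 0.51, adjusted p = 0.133). Without rgs1 sucrose replicate 1 both values of STP3 passed the threshold, at 2.28 (limma, adjusted p = 0.0202) and 1.79 (limma, adjusted p = 0.0317).

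TMT2, a tonoplast monosaccharide transporter that loads hexoses into the vacuole, read 7.78, 7.29 and 8.04 with sucrose, against 4.54, 3.27 and 7.18 with mannitol and 6.29, 5.64 and 7.56 with no sugars in the wild type. The rgs1 values were 6.08, 8.02 and 6.47 with no sugars, 7.58, 6.19 and 5.33 with mannitol and then 8.77, 7.45 and 8.24 with sucrose. Above all mannitol arrays were 4 of the 6 sucrose arrays, and above all no-sugar arrays 3 of them, and the mannitol arrays spread over more than 4 log2 units. The log2 fold change was 2.25 against mannitol (limma, standard error 0.64, adjusted p = 0.0774) and 1.25 against no sugars (limma, standard error 0.43, adjusted p = 0.109). Without rgs1 mannitol replicate 1 the first value of TMT2 was 2.63 and passed the threshold (limma, adjusted p = 0.0449).

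TMT1, the other tonoplast carrier, read 5.73, 6.04, 6.53, 7.23, 7.40 and 7.82 with sucrose, 6.43, 6.72, 6.79, 7.20, 7.95 and 8.20 with mannitol, and 6.05, 6.15, 6.35, 6.43, 7.44 and 7.81 with no sugars, in rising order. The treatments overlapped. Its log2 fold change was -0.42 against mannitol, with a 95% interval of -1.37 to 0.52 (limma, adjusted p = 0.666), and 0.09 against no sugars, with an interval of -0.85 to 1.03 (limma, adjusted p = 0.928). ERD6, first found as a transcript induced by water loss, read 9.36 to 11.03 with no sugars (median 10.23), 9.67 to 11.38 with mannitol (median 10.50) and 8.94 to 11.19 with sucrose (median 9.69), again with overlap. Its log2 fold change was -0.60 against mannitol, with a 95% interval of -1.49 to 0.29 (limma, adjusted p = 0.474), and -0.37 against no sugars, with an interval of -1.24 to 0.49 (limma, adjusted p = 0.632).

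Mannitol at the same concentration gave no call among the 10 genes against no sugars, where 0.275% of 10913 probe sets were called. None of the 10 had an unadjusted limma p under 0.05, where 15.7% of all probe sets did, and none had groups that did not overlap, where 1.39% did. The log2 fold changes lay between -0.99 for TMT2 and 0.96 for STP7. For PMT6 the value was 0.02, with a 95% interval of -0.71 to 0.75, for STP4 it was 0.11, with an interval of -0.40 to 0.62, and for STP14 it was -0.11, with an interval of -1.01 to 0.79. For STP7 the interval of -0.22 to 2.14 and for TMT2 that of -2.45 to 0.46 leave room for differences of more than a doubling.

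**Figure D2:**
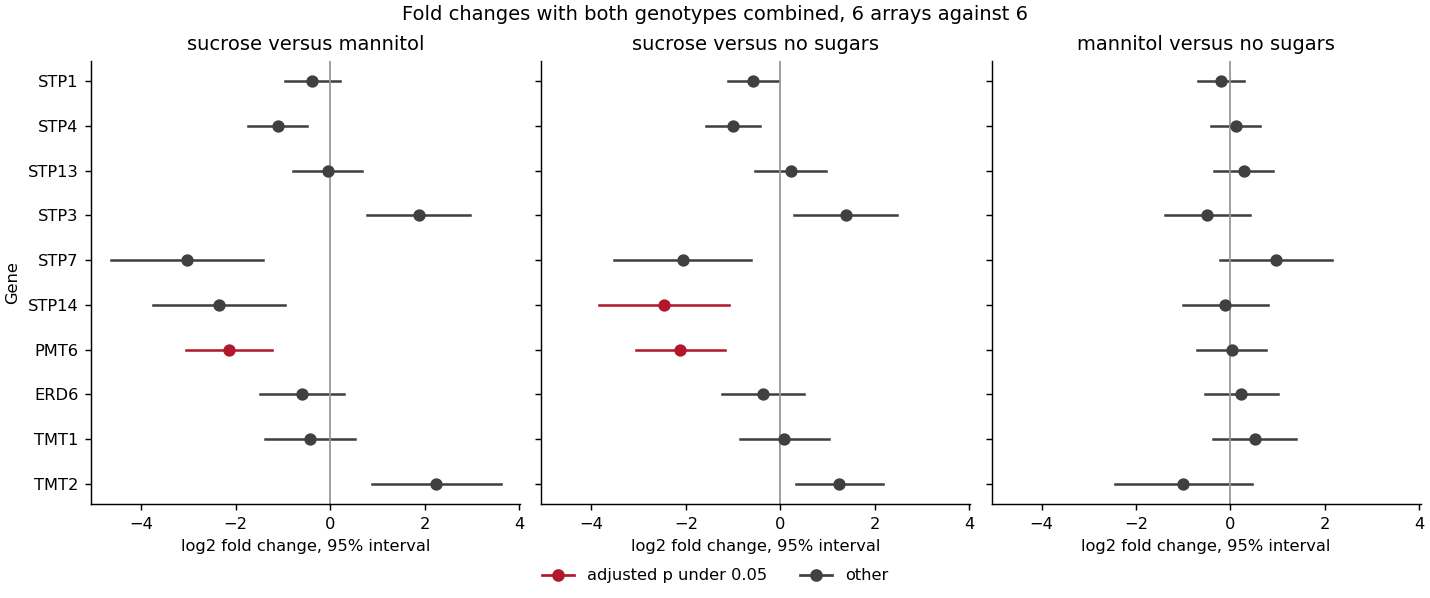
Log2 fold change (x axis) of each transporter gene (y axis) in the 3 comparisons with both genotypes combined, 6 arrays against 6, with limma's 95% interval as the bar. Red marks an adjusted p under 0.05, which PMT6 reached at -2.14 and -2.12 and STP14 at -2.46 against no sugars, and no interval in the mannitol panel excludes 0.

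Ordered by their means, the 6 groups split by treatment for 7 of the 10 genes. For PMT6, STP4, STP7, STP14 and STP1 the wild-type and rgs1 sucrose groups took the 2 lowest places, and for STP3 and TMT2 the 2 highest. The share of all probe sets with such an order was not computed, so the count of 7 is a description only. The lowest control group and the sucrose group next to it did not overlap for PMT6 (11.82 and above against 11.12 and below), STP4 (12.90 against 12.60) and STP14 (7.14 against 6.85). Over all control and sucrose arrays the margins were narrower. The lowest control and highest sucrose values were 11.77 and 11.63 for PMT6, 12.85 and 12.60 for STP4, and 6.89 and 6.85 for STP14. No other pair of neighbours in the order of any of the 10 genes was free of overlap. Some groups that are not neighbours were, as for STP13 with sucrose, 12.60 to 13.58 in the wild type and 11.82 to 12.58 in rgs1, and for STP14 in the wild type, 7.86 to 8.38 with no sugars and 7.14 to 7.60 with mannitol. The 3 genes without such an order were STP13, where the wild-type groups took the first 3 places, ERD6, from 10.79 ± 0.51 (SD, n = 3) in wild type with mannitol to 9.62 ± 0.61 in wild type with sucrose, and TMT1, from 7.65 ± 0.75 in wild type with mannitol to 6.64 ± 0.72 in wild type with no sugars.

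Between the earlier replicates (1 and 2, themselves of different batches) and the later replicate 3 the values lay farthest apart for STP7 and PMT6. For PMT6 the log2 fold change of sucrose against mannitol was -2.69 in replicates 1 and 2, with 4 arrays against 4 (limma, adjusted p = 0.0205), and -1.05 in replicate 3, with 2 against 2 (limma, adjusted p = 0.674). Against no sugars it was -2.80 (limma, adjusted p = 0.0178) and -0.74 (limma, adjusted p = 0.500). For STP7 the values against mannitol were -3.95 (limma, adjusted p = 0.0095) and -1.20 (limma, adjusted p = 0.786), and against no sugars -3.47 (limma, adjusted p = 0.0080) and 0.73 (limma, adjusted p = 0.488), so the direction turned in the later arrays. The difference between the earlier and the later replicates was not tested.

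The values of the other genes lay closer together. STP14 had -2.16 in the earlier and -2.73 in the later replicates against mannitol, and -2.40 and -2.58 against no sugars. STP4 had -1.28 and -0.77 against mannitol, STP3 1.90 and 1.83, and TMT2 2.43 and 1.88. None of these 4 genes was called within the earlier or the later replicates. The values of STP1, STP13, ERD6 and TMT1 within either set were all between -0.87 and 0.46 in the comparisons of sucrose with either control. In the later replicate alone no probe set of the array was called in these comparisons, so the missing calls there say nothing of the transporters.

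**Figure D3:**
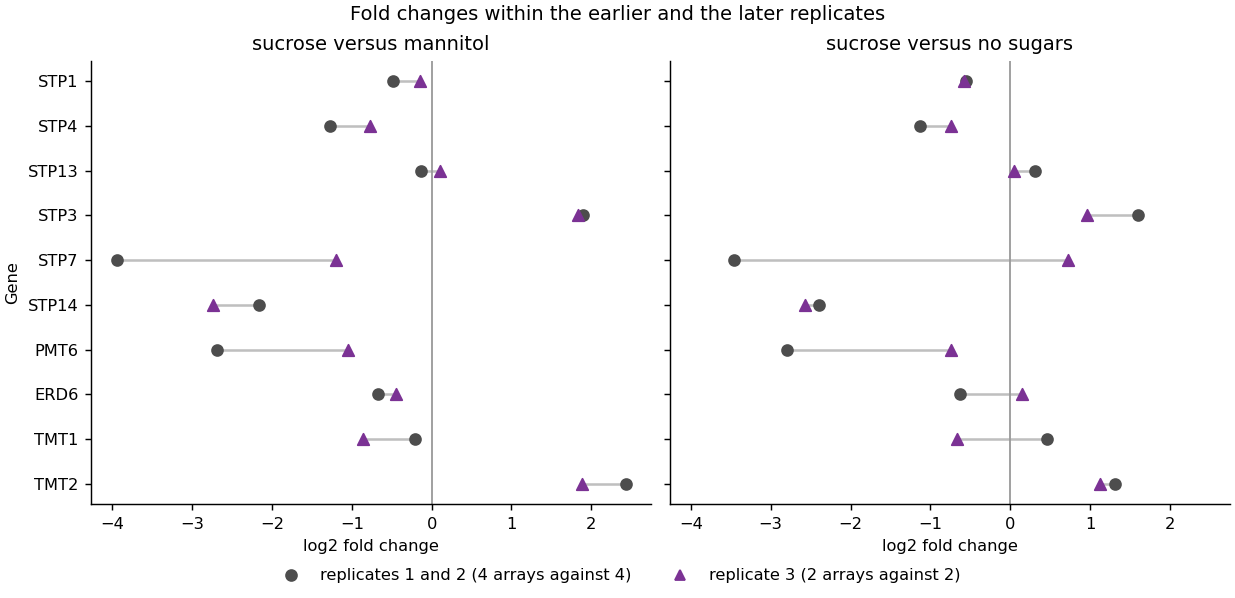
Log2 fold change (x axis) of each transporter gene (y axis) within replicates 1 and 2 (circles) and within replicate 3 (triangles), for sucrose against mannitol and against no sugars. The grey line joins the values of a gene, and it is longest for STP7 (-3.47 and 0.73 against no sugars) and PMT6.

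The study pooled the genotypes, and each genotype was also examined alone. Between sucrose and mannitol none of the 10 genes was called in the wild type, where 0.00898% of 11131 probe sets, a single one, were called, or in rgs1, where 0.0268% of 11201, that is 3, were called. With 3 arrays against 3, an unadjusted limma p under 0.05 was found for 6 of the 10 genes in each genotype, where 8.92% of all probe sets had it in the wild type and 12.2% in rgs1. These were STP3, STP4, STP7, STP14, PMT6 and TMT2 in both. The 2 genotypes share no array here, and the log2 fold changes stood at 1.65 and 2.10 for STP3, -1.09 and -1.13 for STP4, -2.61 and -3.45 for STP7, -2.51 and -2.20 for STP14, -1.76 and -2.52 for PMT6, and 2.71 and 1.79 for TMT2, wild type first. The sign was the same for each of these 6 genes. The share of all probe sets with such a p and the same sign in both genotypes was not computed. The joint count therefore has no background to be read against.

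The interaction of genotype and sucrose, fitted on all 18 arrays, was called for none of the 10 genes and for none of 12608 probe sets, 0% (limma), while 3.96% of the probe sets and none of the 10 genes had an unadjusted p under 0.05. Among the 10 genes it was farthest from 0 for ERD6, 1.14 with a 95% interval of -0.52 to 2.80, and TMT1, 1.13 with an interval of -0.76 to 3.02. With sucrose against mannitol, ERD6 had a log2 fold change of -1.17 in wild type arrays while in rgs1 the value was -0.03, and for TMT1 the values were -0.99 and 0.14. For PMT6 the interaction was -0.76 with an interval of -2.58 to 1.06, and for TMT2 -0.92 with an interval of -3.50 to 1.67. The adjusted p was 0.9997 for each of these genes. The intervals are wide, so differences of more than a doubling between the genotypes are within them.

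**Figure D4:**
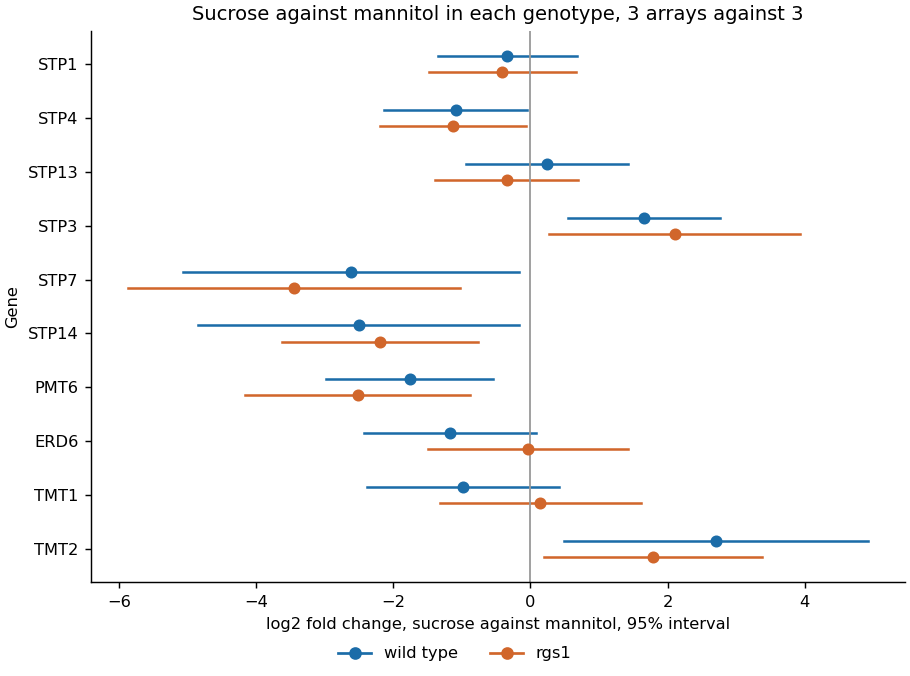
Log2 fold change of sucrose against mannitol (x axis) for each transporter gene (y axis) in the wild type and in rgs1, 3 arrays against 3, with limma's 95% interval as the bar. The bars of the genotypes overlap for all 10 genes, and the points lie farthest apart for ERD6 (-1.17 and -0.03) and TMT1 (-0.99 and 0.14).

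Over all treatments, rgs1 differed from the wild type in none of the 10 genes at the threshold, where 0.00921% of 10853 probe sets, a single one, were called. An unadjusted limma p under 0.05 was found for STP3 and STP13, 2 of 10 genes, where 5.27% of all probe sets had one. STP3 read 3.87 to 7.71 in rgs1 (median 4.64) and 5.03 to 7.43 in the wild type (median 5.96), and STP13 11.82 to 12.60 (median 12.26) and 12.26 to 13.58 (median 12.81). The mean of STP3 was 5.05 ± 1.28 (SD, n = 9) in rgs1 and 6.03 ± 0.83 in the wild type, a log2 fold change of -0.98 (limma, standard error 0.34, adjusted p = 0.875). STP13 had 12.22 ± 0.35 in rgs1 and 12.83 ± 0.41 in the wild type, a log2 fold change of -0.61 (limma, standard error 0.23, adjusted p = 0.875). The 9 arrays of the genotypes overlapped for both genes.

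The other genes of the family, 43 by locus, were taken from a list written from general knowledge. Of these, 39 have a probe set, and 15 of the 39 read below 4 on all 18 arrays, 13 reached 4 on all of them and 11 on some. Between sucrose and mannitol 18 could be tested, 10 with a positive and 8 with a negative log2 fold change, and 1 was called, where 2.36% of all probe sets were. That gene was AT2G48020, an ERD6-like carrier that RefSeq also names Zinc-Induced Facilitator 2, with 6.70 ± 1.67 (SD, n = 6) with sucrose, 9.41 ± 0.65 with mannitol and 8.83 ± 0.59 with no sugars. The study had already listed this gene as lowered by sucrose. It fell by 2.71 on the log2 scale against mannitol (limma, standard error 0.66, adjusted p = 0.0461), and its value against no sugars, -2.13, was not called (limma, adjusted p = 0.0790). Its sucrose values of 4.57 to 9.16 overlapped the mannitol values of 8.44 to 10.11. With any 1 of the 12 arrays left out, the call against mannitol stood only without wild type sucrose replicate 3 (limma, log2 fold change -3.20, adjusted p = 0.0150). Without any other array the log2 fold change of AT2G48020 was between -2.90 and -2.28, with a limma adjusted p of 0.0597 to 0.104. Neither sucrose nor mannitol against no sugars gave a call among the 17 of these genes that were tested in each.

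The plastid glucose translocator PGLCT was not called, with a log2 fold change of -1.38 against mannitol (limma, standard error 0.37, adjusted p = 0.0612). It is named here after its values were seen, because it was the only other family gene whose 6 sucrose arrays, 7.06 to 8.79, all lay below the mannitol arrays, 8.93 to 10.35. Its no-sugar arrays read 7.80 to 9.01 and overlapped the sucrose arrays. The median log2 fold change against mannitol was 0.11 over the 18 other genes of the family, -0.51 over the 10 transporters described above and 0.03 over all probe sets tested.

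**Figure D5:**
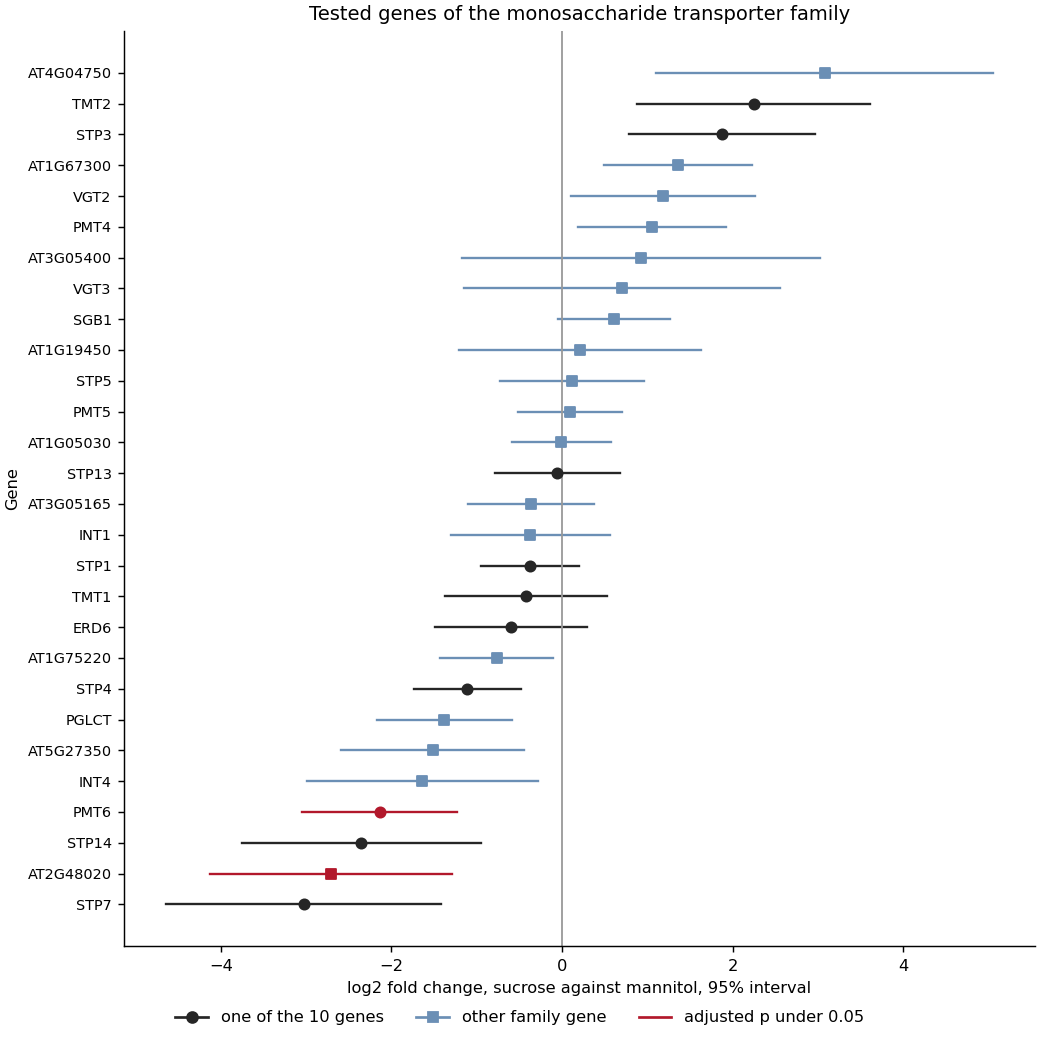
Log2 fold change of sucrose against mannitol (x axis, bars are limma's 95% interval) for the 28 genes of the monosaccharide transporter family that were tested (y axis, in order of the fold change). Circles are the 10 genes followed here and squares the 18 others, and PMT6 (-2.14) and AT2G48020 (-2.71), in red, had an adjusted p under 0.05.

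Across the 18 arrays some of the 10 genes ran in parallel, which is given as a description, since the arrays share their treatments. PMT6 and STP7 had a Pearson r of 0.89 (Spearman rho 0.83), PMT6 and STP4 0.88 (0.79), and STP1 and STP4 0.79 (0.72). STP4 and TMT2 had the most negative pair, at -0.71 (-0.70). Searching 11814 genes, the 3 closest to PMT6 in pattern were OASA2, from the family of cysteine synthases (r = 0.92), AT3G15450 (r = 0.92) and J8, a DnaJ-type chaperone (r = 0.91). For STP14 they were CEJ1, an AP2-type transcription factor (r = 0.85), RHA3A, a RING-H2 finger protein (r = 0.85), and EBP, an ethylene-responsive factor (r = 0.84). For STP1 they were SRC2, a C2-domain protein (r = 0.90), OZF2, a zinc finger protein (r = 0.90), and ATBETAFRUCT4, a vacuolar invertase (r = 0.88).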

How the data were processed

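The authors deposited 1 table of log2 signals for the 18 arrays, made with GCRMA, a method that removes background, scales the arrays alike and sums up each probe set. The series table holds the same values. Probe sets were named by the locus beside them. The removal of probe sets called absent, which the methods describe, was not repeated. In its place probe sets had to reach a log2 value of 4, on 6 arrays for the pooled comparisons, 3 for single genotypes and the interaction, and 9 for the genotype comparison. Tests used limma 3.58.1 in R 4.3.3 on the arrays of each comparison, with Benjamini-Hochberg adjustment at 0.05, and were checked on simulated data. The genotype comparison had treatment as a term, and the interaction 6 group means. Alternatives changed the filter, normalization, prior, terms, threshold and arrays. The members, lists and tests were chosen with earlier results of these data known. Named are the 10 genes, other family genes called in a pooled comparison, RGS1, and the 3 genes nearest in pattern to PMT6, STP14 and STP1. PGLCT and ESL1 fall outside this rule and were added after their values were seen. The number of arrays, each a separate plant, limits the precision. The files name no genome build, and positions and sequences were not used here.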

Additional observations from a re-analysis of the deposited data

Results flagged for a closer look

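In 1 of 30 sets of 6 arrays (10 genes in 3 treatments) a single array stood apart from the rest. It was the STP14 value of 2.58 in wild type with sucrose replicate 2, where the next lowest sucrose array read 5.39 and the highest 6.85, so that its gap to the nearest array was 0.658 of the range, above the limit of 0.625 for 6 arrays. Chance flags about 1 in 20 such sets. Without this array the log2 fold change of STP14 was -1.86 against no sugars (limma, adjusted p = 0.0481) and -1.75 against mannitol (limma, adjusted p = 0.0829).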

How the results depend on the processing

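How many of the 10 genes were called with sucrose against mannitol depended on the setting. Against the reported 1, the count was 0 with no filter, 2 with a filter at a log2 value of 6 or the later growth batch as a term, 3 with quantile normalization, an intensity trend in the prior or array weights, 6 with all 18 arrays in one fit or at an adjusted p under 0.1, 2 with replicates 1 and 2 alone and 0 with replicate 3 alone. Alternatives other than leaving out 1 array or 1 replicate number were 16. PMT6 passed 0.05 in 13 of them, STP7 in 8, STP4 in 4 and STP14 in 2 (limma). STP3 did so in 2 of 15 and TMT2 in 1 of 16, both higher with sucrose (limma). Against no sugars, where 2 were reported, the count was 1 with no filter, median centring, the later growth batch as a term or genotype as a term, 4 at an adjusted p under 0.1 and 0 with replicate 3 alone. Calls were gained as well as lost there. Over the same 16 alternatives PMT6 passed 0.05 in 14, STP14 in 9 and STP4 in 6, and STP7 in 1 of 15 (limma). Leaving out 1 array or 1 replicate number gave 0 to 2 and 0 to 3 calls in these comparisons. PMT6 against mannitol also lost its call with no filter, without moderation, with replicate 3 alone and without replicate 1 or 2. PMT6 against no sugars lost it with no filter, with replicate 3 alone and without replicate 1 or 2 (limma, adjusted p of 0.0573 to 0.500), and STP14 against no sugars in 20 of 31 alternatives, with no change of direction. The call of AT2G48020 against mannitol was lost in 21 of 31 alternatives, also without a change of direction. In the other comparisons the count was 0 under every alternative run. Over all genes, 259 calls against mannitol became 57 with no filter, 77 without moderation, 496 in one fit, 110 with replicates 1 and 2 alone, 0 with replicate 3 alone and 6 without replicate 2. Against no sugars 449 became 164, 251, 346, 173, 0 and 27, in the same order. Why the counts moved was not tested.

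With the replicate number as a block, 2 transporters were called in either sucrose comparison, STP7 joining PMT6 against mannitol (limma, adjusted p = 0.0327), and no other comparison gained a call. With genotype in the block the counts were again 2 and 2. Deviations from the group means correlated by 0.02 on average over 45 pairs of arrays with the same number and by -0.01 over 90 with different numbers, so the numbers were not taken as pairs.

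The direction turned only for values that were not called. With replicate 3 alone, an alternative added after the data had been seen, STP13 was 0.10 against mannitol, TMT1 -0.66, STP7 0.73 and ERD6 0.14 against no sugars, and STP13 -0.050 and STP14 0.16 for mannitol against no sugars. Array weights gave STP13 0.037 against mannitol, TMT1 -0.039 against no sugars and ERD6 0.19 in rgs1. For PMT6 between mannitol and no sugars, median centring gave -0.00083 and replicates 1 and 2 alone -0.12. Leaving out arrays or replicates moved STP13 from -0.27 to 0.24 against mannitol, TMT1 from -0.43 to 0.46 against no sugars, PMT6 from -0.12 to 0.24 and STP14 from -0.36 to 0.10 for mannitol against no sugars, STP13 in the wild type from -0.23 to 0.69, ERD6 and TMT1 in rgs1 from -0.62 to 0.33 and from -0.34 to 0.95, and the interaction of TMT2 from -2.40 to 0.0044.

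The series table holds the same values and gave the same 1 and 2 calls, and with 1 probe set a gene there was no other to try. Values below a log2 of 4, which STP7 had on 4 arrays and STP14 on 1 with sucrose, and STP3 on 2 and TMT2 on 1 with mannitol, have little meaning as levels.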

Other observations

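ESL1 (AT1G08920), an ERD6-like carrier, could not be tested in the pooled comparisons because it reached a log2 value of 4 on 5 of 18 arrays only. It is named after its values were seen. It read 5.36, 6.06 and 7.03 in rgs1 with mannitol, 3.33, 7.76 and 3.55 in the wild type with mannitol, and 2.08 to 3.41 on the 6 no-sugar arrays. With sucrose it read 2.07 to 6.19, a single array of the 6 being above 4. The mean was 5.52 ± 1.81 (SD, n = 6) with mannitol, 2.37 ± 0.52 with no sugars and 2.99 ± 1.63 with sucrose, and ERD6 itself did not separate between mannitol and no sugars.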
